A study of Mus musculus with 5 samples.

Results

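The 40 genes described here encode enzymes that make, use and recycle glutathione or that remove reactive oxygen species. They were taken by symbol from a table of 24016 genes, by a rule that holds no threshold on a measured value but was set with earlier results of these data known, and all 40 symbols were found. They fall into 8 enzyme families: the alpha class of cytosolic glutathione S-transferases (GSTs), the mu class, the omega, pi, theta, zeta and kappa classes together, the microsomal GSTs, the enzymes of glutathione synthesis and reduction, the glutathione peroxidases, a group of enzymes known to respond to the transcription factor NRF2, and catalase with the superoxide dismutases and a peroxiredoxin.

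Glutathione is built from glutamate, cysteine and glycine by glutamate-cysteine ligase (Gclc, Gclm) and glutathione synthetase (Gss), and it is kept in its reduced form by glutathione reductase (Gsr). GSTs couple it to electrophilic compounds and glutathione peroxidases use it to reduce peroxides, while catalase, superoxide dismutases and peroxiredoxins act on reactive oxygen species directly. Many of these genes carry antioxidant response elements, short DNA sites bound by NRF2 together with small MAF proteins once oxidants or electrophiles relieve its inhibition by KEAP1.

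Messenger RNA of mouse embryonic stem (ES) cells was sequenced strand-specifically, as single-end reads of 50 bases after poly-dT selection, in 5 libraries with 1 library per labelled line. NOD, an inbred strain that develops autoimmune diabetes spontaneously, gave 2 libraries, called replicates 1 and 5, and NZB, an inbred strain prone to lupus-like autoimmunity, gave 1. The strains without that predisposition gave 1 library each of B6, which is C57BL/6, and of v6.5, an ES line derived from C57BL/6 crossed with 129S4/SvJae. None of the lines carried an engineered allele according to the labels, and all shared one culture regime, 2i medium with inhibitors of the kinases MEK and GSK3 and no feeder cells. NZB, B6 and v6.5 were each represented by 1 line, so strain and line cannot be told apart for them. The labels do not say that the libraries came from separate cultures, so p-values measure only the spread between these libraries, which may be technical.

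Before any result, 2 limits on the labels need stating. In the header of the deposited table, the command line lists 2 input directories named for B6 but no directory named for v6.5, and that column is therefore given below as the library labelled v6.5. The same header gives NOD replicate 5 a directory name that joins the numbers 5 and 6, so whether that library holds a single line is not known.

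Recovered reads per library ranged between 7713133 and 21387796. Levels are given as normalised reads, which are deposited values divided by a TMM composition factor for each library, and 1 recovered read was worth between 0.485 (NOD replicate 5) and 1.52 (NOD replicate 1) normalised reads. Rn45s, the ribosomal RNA precursor, took between 1.95% and 41.4% of the reads, with the highest share in B6. All 8 ES cell markers checked (Pou5f1, Sox2, Nanog, Zfp42, Esrrb, Klf4, Tfcp2l1 and Dppa5a) were present in every library, with sums between 30412 and 57669 normalised reads. Of these 8, Pou5f1, Zfp42 and Dppa5a were higher and Nanog lower in every NOD and NZB library than in B6 and the library labelled v6.5, and limma called 2 in NOD against B6, Zfp42 as higher and Klf4 as lower. A list of 8 fibroblast or feeder markers summed to 183 and 168 normalised reads in NOD replicates 1 and 5 and 6931 in NZB, against 4199 in B6 and 664 in the library labelled v6.5. Of the 6 tested, limma called 3 lower in NOD against B6 and 3 in NOD against NZB, where 3.13% and 0.616% of all genes were called. In NZB against B6, 5 of the 6 had a positive and 1 a negative log2 fold change, with Col1a1 at 2.10 and Col1a2 at 1.46 times B6. A list of 7 trophoblast markers summed to 5020 and 3195 in the NOD libraries and 945 in NZB, against 1157 in B6 and 990 in the library labelled v6.5. Krt8, Krt18 and Tfap2c made up most of that sum in the NOD libraries, whereas Eomes gave 32.0 and 64.0 in the NOD libraries and 77.2 in NZB, against 488 in B6 and 426 in the library labelled v6.5, and Cdx2 was at or under 2.06 in the NOD and NZB libraries, against 11.3 in B6 and 2.71 in the library labelled v6.5. Sums of primitive endoderm markers lay between 101 and 459, and those of the 4 erythroid and 4 liver markers at or near 0 (at most 24.4). In bulk RNA, fewer cells of a type and less RNA per cell cannot be told apart.

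Of the 40 genes, 37 passed the filter on low reads and were tested. Gsta1 and Gsta2 had 0 reads in every library. Mgst2, a microsomal GST, had 6 and 20 reads in the NOD libraries and 0 in NZB, against 0 in B6 and 2 in the library labelled v6.5, and was also left out. Levels covered a wide range: of the 40 genes, 13 reached 1000 normalised reads in at least 1 library, 7 did so in every library, and 8, including these 3, stayed under 50 everywhere.

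**Figure D1:**
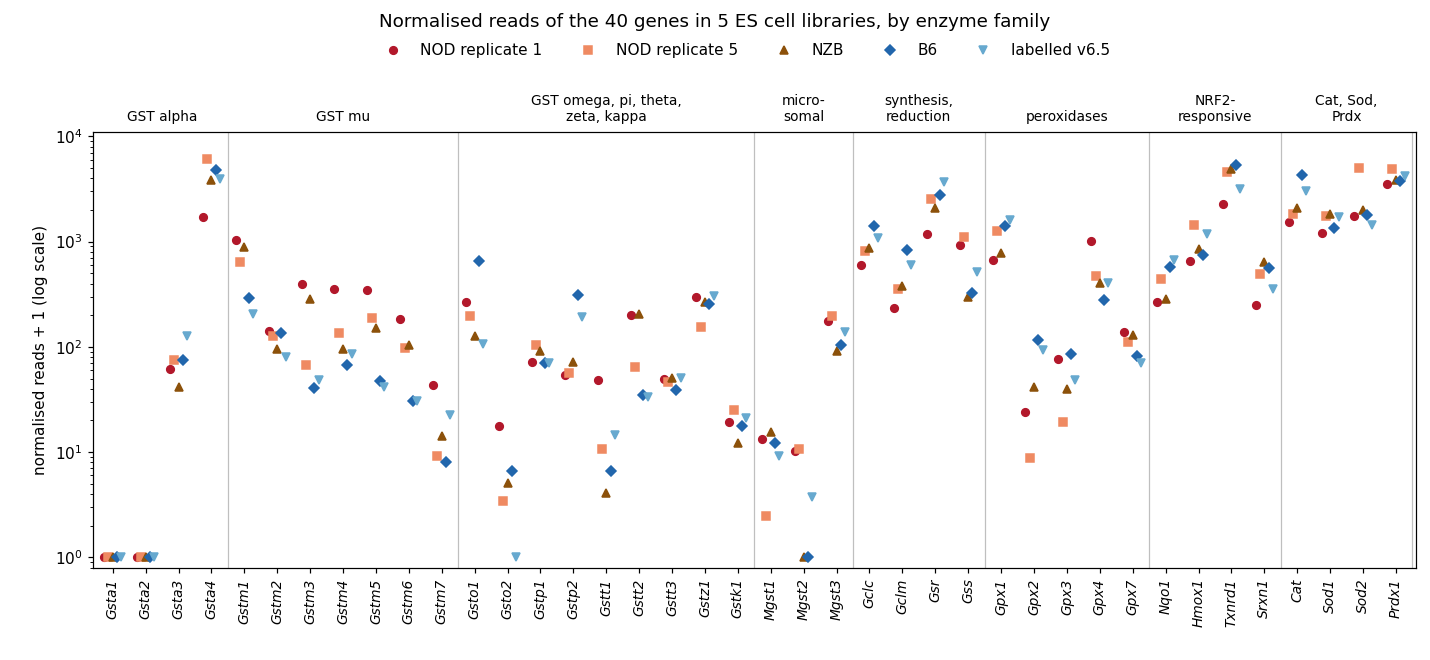
Normalised reads plus 1 (log axis) of each of the 40 genes, grouped by enzyme family, with 1 point per library in the order NOD replicate 1, NOD replicate 5, NZB, B6 and the library labelled v6.5. Gsta1 and Gsta2 lie at 0 reads in every library, Gsta4, Prdx1 and Txnrd1 pass 1000 in every library, and most mu-class GSTs stand higher in the NOD and NZB libraries than in B6 and the library labelled v6.5.

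Divided by transcript length, so that genes can be compared with each other, Gsta4, Prdx1 and Sod1 held the highest 3 levels in every library. Gsta4, a GST that conjugates the lipid peroxidation product 4-hydroxynonenal, reached 1823 and 6366 normalised reads per kb in NOD replicates 1 and 5 and 4041 in NZB, against 5101 in B6 and 4106 in the library labelled v6.5. Catalase, the superoxide dismutases and Prdx1 together made up between 33.7% and 37.9% of the summed per-kb level of the 40 genes, a share that varied little between libraries. The mu class of GSTs took 13.8% and 4.60% of that sum in the NOD libraries and 7.41% in NZB, against 2.49% in B6 and 2.14% in the library labelled v6.5. These shares are levels and were not tested.

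The design groups NOD with NZB as autoimmune-prone lines and sets them against B6 with v6.5, and 3 of the 37 tested genes passed the threshold in that comparison. Gstm1 and Gstm5, both mu-class GSTs, rose, and Gstp2, a pi-class GST, fell (limma, Benjamini-Hochberg adjusted p below 0.05 over 14280 genes). The 3 genes are 8.11% of the 37, where 3.88% of all genes tested were called, 1.83% as higher and 2.04% as lower. At an unadjusted p under 0.05 there were 13 of the 37, and 25.6% of all genes. The quasi-likelihood test of edgeR called 2 (Gstm1 and Gstp2), where it called 2.54% of all genes, and DESeq2 called 9, where it called 14.9%. The libraries of the groups did not overlap in 17 of the 37 genes, or 45.9%, and in 45.8% of all genes tested, so the count of separated genes was at the background. The TMM factor of B6 was 0.642, against 1.03 to 1.23 in the other libraries, and B6 was also the library with 41.4% of its reads on Rn45s. On the deposited scale, without that factor, Gsta3, Gclc, Gsr, Gpx1 and Nqo1 overlapped, while Gstm2, Gpx4 and Sod2 lay above in all NOD and NZB libraries. The median log2 fold change of the 37 was 0.02, against 0.01 over all genes. Each of the 3 calls was lost when NOD replicate 1, NOD replicate 5, B6 or the library labelled v6.5 was left out, settings in which 0.770%, 0.0350%, 0.00% and 0.00700% of all genes were called, whereas 7 genes were called without NZB, where 9.11% of all genes were.

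Between NOD and B6 none of the 37 genes passed limma's adjusted threshold, where 3.13% of all genes were called. Of the 37, 12 had an unadjusted p under 0.05, as did 18.9% of all genes, and edgeR's quasi-likelihood test on recovered reads called 8, or 21.6%, where it called 8.10% of all genes (3.35% higher and 4.74% lower). Gss, Gstm1, Gstm3 and Gstm5 were higher and Cat, Gclm, Gpx2 and Gstp2 lower among those 8. DESeq2 called 3 of them, Gss, Gstm5 and Gstp2, where it called 4.94% of all genes. With 1 B6 library, its spread was assumed to equal that of the NOD lines.

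For the other pairs limma called 0 of the 37 genes, and its share over all genes was 0.616% in NOD against NZB, 1.65% in NOD against v6.5, 0.140% in NZB against B6 and 0.00700% in v6.5 against B6. The counts at an unadjusted p under 0.05 were 1, 7, 5 and 1 in the same order, where 8.00%, 16.6%, 9.24% and 2.21% of all genes had one. edgeR called Gss in NOD against NZB (2.58% of all genes called), Gstm1, Gstm3, Gstm5 and Gpx2 in NOD against v6.5 (5.86%), Gstm3 and Gsto1 in NZB against B6 (2.04%) and 0 genes in v6.5 against B6 (0.231%). DESeq2 called 0, 2, 0 and 0 of the 37, where its shares over all genes were 1.51%, 3.26%, 1.11% and 0.168%. These comparisons share libraries and are not independent of each other.

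**Figure D2:**
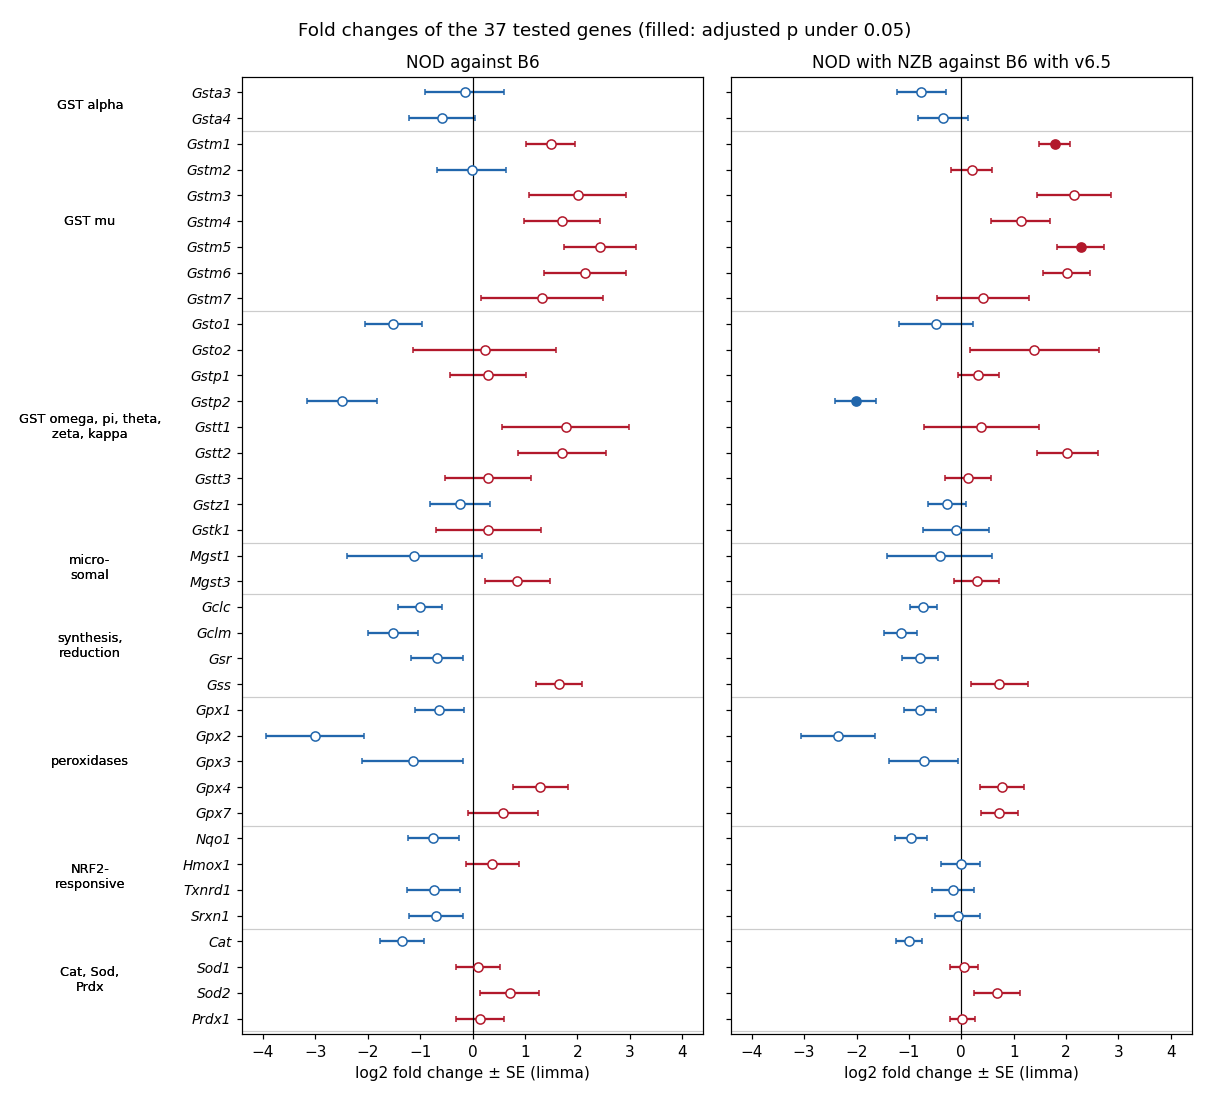
Log2 fold change with its standard error (limma) of the 37 tested genes by family, for NOD against B6 on the left and for NOD and NZB against B6 and v6.5 on the right, with filled points where the adjusted p is under 0.05. Only Gstm1, Gstm5 and Gstp2 in the right panel are filled, with log2 fold changes of 1.78, 2.28 and -2.02.

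The mu-class GSTs lie side by side in one cluster on chromosome 3, at chr3:107698772-107847774 in mm9, a span of 149 kb. These cytosolic enzymes conjugate glutathione to a broad set of electrophiles. All 7 members had a positive log2 fold change in NOD and NZB against B6 and v6.5, with a median of 1.78 against 0.01 for all genes. Limma called 2 of the 7 as higher, where it called 1.83% of all genes as higher. Summed over the 7 genes, the class gave 2492 and 1264 normalised reads in NOD replicates 1 and 5 and 1632 in NZB, against 614 in B6 and 507 in the library labelled v6.5, a 3.21-fold difference between the group means.

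Gstm1, the most abundant of them per kb in every library, gave 1032 and 644 normalised reads in the NOD libraries and 889 in NZB, against 289.9 in B6 and 204 in the library labelled v6.5. Every NOD and NZB library lay above both others, and the groups did not overlap. Its log2 fold change was 1.78 (SE 0.30, limma adjusted p = 0.031) in the comparison of NOD and NZB against B6 and v6.5, and 1.49 (SE 0.47, adjusted p = 0.11) in NOD against B6, where edgeR gave an adjusted p of 0.037. Against v6.5 alone NOD was higher by 1.99 (SE 0.47, limma adjusted p = 0.059), and NOD and NZB differed by -0.13 (SE 0.47). Without NOD replicate 1, NOD replicate 5, B6 or the library labelled v6.5 the adjusted p for Gstm1 became 0.072, 0.0695, 0.198 and 0.218, with log2 fold changes between 1.53 and 2.03.

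Gstm5 gave 349 and 186 normalised reads in the NOD libraries and 151 in NZB, against 46.4 in B6 and 40.6 in the library labelled v6.5. Its groups did not overlap either, and NZB, the lowest of the autoimmune-prone libraries, was still well above B6. The log2 fold change was 2.28 (SE 0.44, limma adjusted p = 0.040) for NOD and NZB against B6 and v6.5 and 2.43 (SE 0.69, adjusted p = 0.083) for NOD against B6. The edgeR adjusted p for Gstm5 was 0.0501 in the comparison of NOD and NZB against B6 and v6.5, just above the threshold of 0.05, and 0.017 in NOD against B6. Leaving out NOD replicate 1, NOD replicate 5, B6 or the library labelled v6.5 gave adjusted p values of 0.081, 0.094, 0.25 and 0.24. Gstm5 overlaps 4933431E20Rik by 360 bases on the opposite strand, and the authors counted reads by strand.

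Among the mu-class genes short of the threshold, Gstm3 showed the widest span. Gstm3 gave 392 and 66.4 normalised reads in the NOD libraries and 286 in NZB, against 39.4 in B6 and 47.3 in the library labelled v6.5, so the NOD libraries differed from each other 5.9-fold and the groups still did not overlap. Its log2 fold change was 2.15 (SE 0.71, limma adjusted p = 0.11) for NOD and NZB against B6 and v6.5. Gstm6 gave 184 and 96.9 normalised reads in the NOD libraries and 104 in NZB, against 29.5 in B6 and 29.7 in the library labelled v6.5, again with no overlap, and a log2 fold change of 2.02 (SE 0.45, limma adjusted p = 0.052). Gstm4 gave 352 and 136 in the NOD libraries and 93.7 in NZB, against 66.1 in B6 and 83.8 in the library labelled v6.5. The groups did not overlap in Gstm4 either, although only NOD replicate 1 stood far from the rest.

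The other 2 genes of the cluster overlapped between groups. Gstm2 gave 140.2 and 127 normalised reads in the NOD libraries and 94.7 in NZB, against 135 in B6 and 79.8 in the library labelled v6.5, and its log2 fold change of 0.20 (SE 0.40) had limma adjusted p = 0.79. Gstm7, the lowest of the class per kb in every library, gave 42.7 and 8.24 in the NOD libraries and 13.4 in NZB, against 7.04 in B6 and 21.6 in the library labelled v6.5. Parts of several of these transcripts are alike: 28.8% of the 50-base stretches of Gstm3, 23.1% of those of Gstm1 and 11.8% of those of Gstm6 occur in another gene or pseudogene, so reads from those stretches are uncertain between genes.

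Genes on either side of the cluster were compared with it as levels. Gnai3, a G protein subunit gene 211 kb from the cluster's start, gave 2069.5 and 2099 normalised reads in the NOD libraries and 2007 in NZB, against 1754 in B6 and 2453 in the library labelled v6.5. Ampd2, the nearest gene beyond Gstm4 and an AMP deaminase, gave 405 and 503 in the NOD libraries and 571 in NZB, against 338 in B6 and 343 in the library labelled v6.5. Eps8l3, on the other flank, was at 0 in every library except B6. Among these neighbours Gnai3 overlapped between groups and Ampd2 did not.

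**Figure D3:**
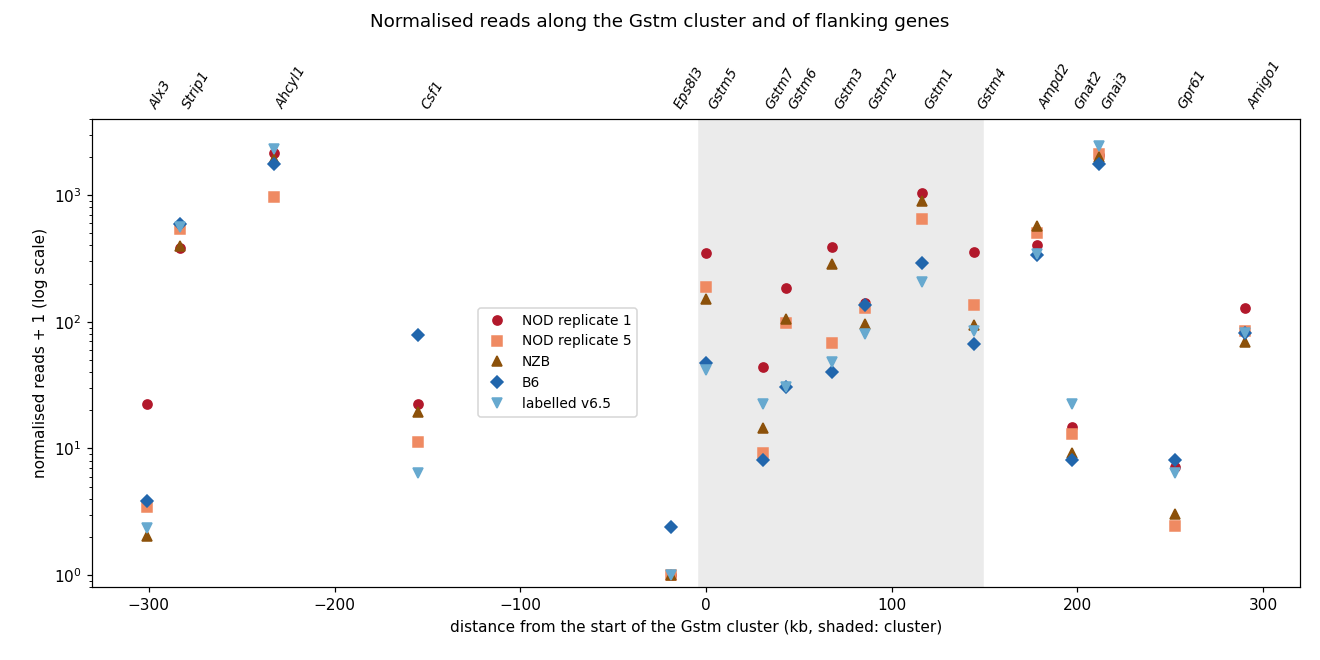
Normalised reads plus 1 (log axis) of the mu-class GST genes (shaded) and of flanking genes against distance in kb from the cluster's start, 1 marker per library. Within the cluster Gstm1, Gstm3, Gstm4, Gstm5 and Gstm6 have the NOD and NZB markers above the B6 and v6.5 markers, whereas Gstm2 and the flanking gene Gnai3 do not separate.

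Several cell type markers were also higher in every NOD and NZB library than in B6 and the library labelled v6.5. Gata4, a primitive endoderm marker, gave 168 and 70.3 normalised reads in the NOD libraries and 91.6 in NZB, against 57.7 in B6 and 47.3 in the library labelled v6.5. Sox17 of that list (1.17-fold in NOD replicate 5 over B6), Tfap2c and Krt18 of the trophoblast list and Pou5f1, Zfp42 and Dppa5a of the ES cell list separated the groups in the same direction. Of all genes tested, 45.8% separated the groups in either direction. Other members of the lists did not: Gata6, Pdgfra and Dab2 were 0.46, 0.37 and 0.33 of B6 in NOD replicate 5. Krt8 was 0.43 of B6 in NZB. Eomes and Nanog lay below B6 and the library labelled v6.5 in every NOD and NZB library. The summed primitive endoderm markers overlapped between groups (459 and 125 in the NOD libraries and 195 in NZB, against 182 in B6 and 101 in the library labelled v6.5), as did the fibroblast and trophoblast sums. The part of these markers in the fold changes was not tested. Rn45s took 14.3% and 1.95% of reads in the NOD libraries and 1.98% in NZB, against 41.4% in B6 and 9.75% in the library labelled v6.5, and its part in the fold changes was not tested.

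The pi-class genes Gstp1 and Gstp2 are neighbours on chromosome 19 that encode closely related enzymes. Gstp2 gave 53.3 and 55.7 normalised reads in NOD replicates 1 and 5 and 71.0 in NZB, against 311 in B6 and 192 in the library labelled v6.5. All 3 NOD and NZB libraries lay far below the other libraries. The log2 fold change of Gstp2 was -2.02 (SE 0.39, limma adjusted p = 0.040) for NOD and NZB against B6 and v6.5 and -2.49 (SE 0.66, limma adjusted p = 0.069) for NOD against B6, where edgeR gave 0.0040. Gstp1 gave 70.1 and 103 in the NOD libraries and 89.6 in NZB, against 69.0 in B6 and 69.0 in the library labelled v6.5, with a log2 fold change of 0.32 (SE 0.39, limma adjusted p = 0.64). Leaving out NOD replicate 1, NOD replicate 5, B6 or the library labelled v6.5 moved the adjusted p of Gstp2 to 0.082, 0.094, 0.32 and 0.195.

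As a share of the reads assigned to either gene, Gstp2 took 43.2% (95% Wilson interval 33% to 54.1%) in NOD replicate 1, 35.2% (30.2% to 40.5%) in NOD replicate 5 and 44.2% (36.7% to 52.1%) in NZB, against 81.9% (76.8% to 86%) in B6 and 73.6% (66.9% to 79.3%) in the library labelled v6.5. The intervals cover counting error only, and those of the NOD and NZB libraries did not reach those of B6 and the library labelled v6.5. The sum of both genes was 123 and 158 normalised reads in the NOD libraries and 161 in NZB, against 380.0 in B6 and 261 in the library labelled v6.5. Of the 50-base stretches of the transcripts, 62.3% for Gstp1 and 72.6% for Gstp2 occur in another gene, and reads of every strain were aligned to the C57BL/6 reference. The part of either in the assignment of reads was not tested.

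**Figure D4:**
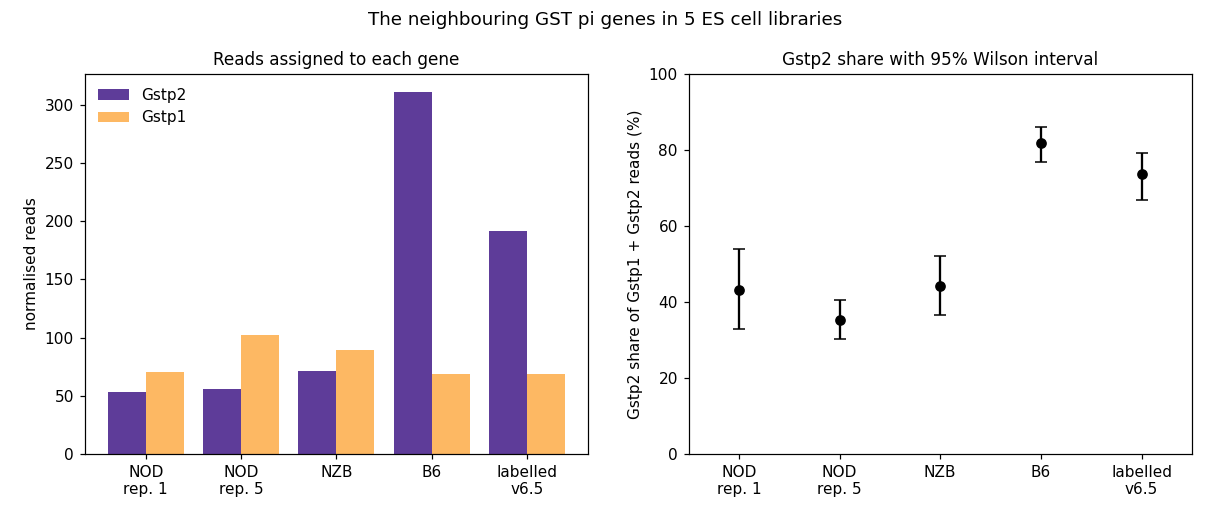
Left, normalised reads of Gstp2 and Gstp1 in each library. Right, Gstp2 as a percentage of the reads assigned to either gene, with 95% Wilson intervals, which lies between 35.2% and 44.2% in the NOD and NZB libraries, against 81.9% in B6 and 73.6% in the library labelled v6.5.

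The sequence in front of both genes is shown because they lie next to each other and the share of reads between them differed among the libraries. The 250 bases before each start site (RefSeq, GRCm38.p6, minus strand, written 5′ to 3′) were identical at 207 positions, or 82.8%, in a global alignment. Each holds 1 match to TGAGTCA, the letters of an AP-1 site, marked in capitals. Over all genes these letters were searched on both strands in a longer window, 250 bases before to 50 after each start site. Any promoter of a gene could match, and 5.95% of 27025 genes and 6 of the 35 members with a promoter entry (17.1%) had a match. This motif was chosen after the sequences had been seen, and a match in the C57BL/6 reference is a description of these letters only.
Gstp2, chr19:4042222-4042471: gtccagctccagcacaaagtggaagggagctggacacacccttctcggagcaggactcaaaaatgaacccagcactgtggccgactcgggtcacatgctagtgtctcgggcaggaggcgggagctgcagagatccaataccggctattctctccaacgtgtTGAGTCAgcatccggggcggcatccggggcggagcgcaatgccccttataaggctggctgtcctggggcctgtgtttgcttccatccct
Gstp1, chr19:4037913-4038162: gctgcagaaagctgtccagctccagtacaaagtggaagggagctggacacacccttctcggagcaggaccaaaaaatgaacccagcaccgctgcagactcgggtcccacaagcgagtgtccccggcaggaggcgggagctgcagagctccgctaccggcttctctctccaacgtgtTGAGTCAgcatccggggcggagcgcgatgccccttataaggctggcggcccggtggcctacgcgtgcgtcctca

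The theta class is encoded by neighbouring genes on chromosome 10. Gstt2 gave 201 and 63.0 normalised reads in the NOD libraries and 205 in NZB, against 33.8 in B6 and 32.5 in the library labelled v6.5, with no overlap between groups and a log2 fold change of 2.02 (SE 0.58, limma adjusted p = 0.085). Gstt1 reached 47.2 in NOD replicate 1 and lay between 3.09 and 13.5 in the other libraries, and Gstt3 lay between 38.0 and 50.0 in all 5. Only Gstt2 of these 3 genes separated the groups.

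Gsto1, an omega-class GST with thioltransferase activity, stood out in a single library. Gsto1 gave 267 and 195 normalised reads in the NOD libraries and 127 in NZB, against 652 in B6 and 105 in the library labelled v6.5. B6 was the high library, and the log2 fold change of Gsto1 was -2.35 in NZB against B6 and -2.62 in v6.5 against B6. Each of these pairs sets 1 library against 1. Its value in the comparison of NOD and NZB against B6 and v6.5 was -0.48 (SE 0.71). The summed fibroblast markers were 183 and 168 in the NOD libraries and 6931 in NZB, against 4199 in B6 and 664 in the library labelled v6.5, and their part in the level of Gsto1 was not tested.

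Among the remaining transferases, Gstz1, which acts in tyrosine breakdown, lay between 152 and 303 normalised reads, and Mgst3, a microsomal enzyme, between 89.6 and 196. Gsto2, Gstk1 and Mgst1 stayed under 25 normalised reads in every library. In the alpha class Gsta3 gave 61.0 and 73.6 in the NOD libraries and 40.1 in NZB, against 74.6 in B6 and 126 in the library labelled v6.5, and Gsta4 gave 1729.7 and 6041 in the NOD libraries and 3835 in NZB, against 4841 in B6 and 3897 in the library labelled v6.5. Gsta3 was lower in every NOD and NZB library than in the others, by little for NOD replicate 5 against B6, and the NOD libraries bracketed all others for Gsta4, with a 3.49-fold span. Neither gene was called (limma adjusted p = 0.33 and 0.68 for NOD and NZB against B6 and v6.5).

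Of the 4 genes of glutathione synthesis and reduction, 0 were called by limma in NOD against B6 or in NOD and NZB against B6 and v6.5 (3 and 3 at an unadjusted p under 0.05, with 2 and 0 calls by edgeR). Of all genes, 18.9% and 25.6% had such an unadjusted p, and edgeR called 8.10% and 2.54%. Gclc encodes the catalytic and Gclm the modifier subunit of glutamate-cysteine ligase, the rate-limiting enzyme. Gclm gave 233 and 352 normalised reads in the NOD libraries and 374 in NZB, against 826 in B6 and 595 in the library labelled v6.5. Gclc gave 600.4 and 811 in the NOD libraries and 859 in NZB, against 1402 in B6 and 1092 in the library labelled v6.5. Both subunits were lower in every NOD and NZB library than in either other library, which on the deposited scale held for Gclm but not for Gclc. The log2 fold change of NOD and NZB against B6 and v6.5 was -1.16 (SE 0.31, limma adjusted p = 0.073) for Gclm and -0.73 (SE 0.26, adjusted p = 0.13) for Gclc, so neither was called, and in NOD against B6 edgeR called Gclm (adjusted p = 0.025) and not Gclc (adjusted p = 0.16).

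Gss, which adds glycine in the last step, had its highest values in the NOD libraries. Gss gave 931 and 1102 normalised reads in the NOD libraries and 294 in NZB, against 321 in B6 and 511 in the library labelled v6.5. Both NOD libraries lay above the 3 others, and NZB was the lowest. The log2 fold change was 1.66 (SE 0.44) in NOD against B6, with adjusted p = 0.066 by limma, 0.019 by edgeR and 0.045 by DESeq2, and 1.78 (SE 0.44) in NOD against NZB, with adjusted p = 0.13 by limma and 0.022 by edgeR. The summed trophoblast markers separated the same libraries (5020 and 3195 in NOD and 945 in NZB, against 1157 in B6 and 990 in the library labelled v6.5). Within that list limma called Krt8 and Krt18 higher and Eomes lower in NOD against B6. The summed fibroblast markers also separated them, with NOD low (183 and 168 in NOD and 6931 in NZB, against 4199 in B6 and 664 in the library labelled v6.5). The part of either list in the difference of Gss was not tested.

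Gsr, which returns oxidised glutathione to its reduced form, gave 1193 and 2530.1 normalised reads in the NOD libraries and 2089.5 in NZB, against 2798 in B6 and 3667 in the library labelled v6.5. Its libraries did not overlap between groups, although they did on the deposited scale. The NOD replicates differed by more than NOD replicate 5 differed from B6, and the log2 fold change of -0.79 (SE 0.34) had limma adjusted p = 0.19.

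**Figure D5:**
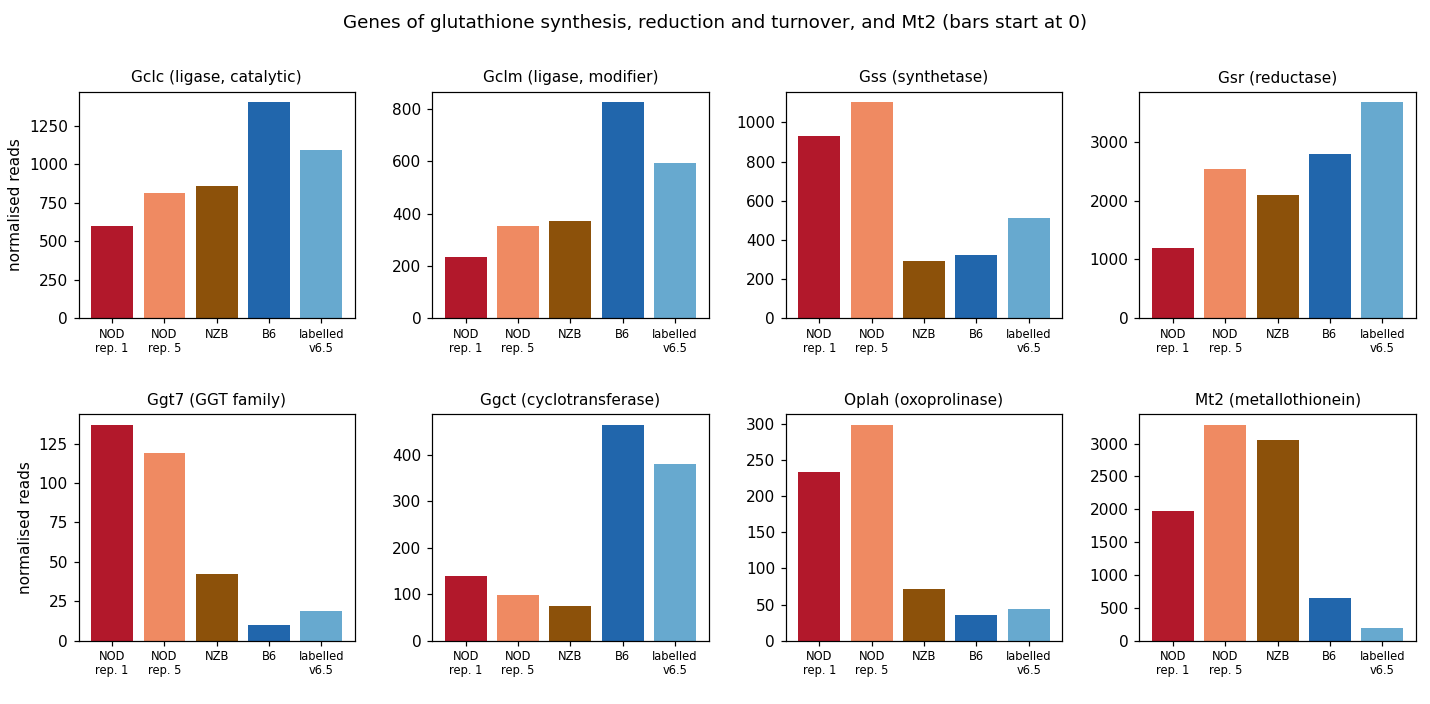
Normalised reads per library (bars from 0) of the genes of glutathione synthesis and reduction (top row) and of Ggt7, Ggct, Oplah and Mt2 (bottom row), in the order NOD replicate 1, NOD replicate 5, NZB, B6 and the library labelled v6.5. Gclc, Gclm and Ggct are lower in the NOD and NZB libraries than in B6 and the library labelled v6.5, Gss is higher in the NOD libraries than in the 3 others, and Oplah, Ggt7 and Mt2 are higher in the NOD and NZB libraries.

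The genes around the synthesis pathway were given by a list of 14 genes for cysteine supply and glutathione turnover, of which 2 rose in NOD against B6 and 1 fell in NOD and NZB against B6 and v6.5 (limma), while 12 and 13 were not called. Of all genes tested, 3.13% and 3.88% were called in these comparisons. Oplah, the 5-oxoprolinase that returns glutamate to the cycle, gave 233 and 299 normalised reads in the NOD libraries and 72.0 in NZB, against 35.2 in B6 and 43.3 in the library labelled v6.5, a log2 fold change of 2.87 (SE 0.69, limma adjusted p = 0.048) in NOD against B6. Ggt7, of the gamma-glutamyltransferase family, gave 137 and 119 in the NOD libraries and 42.2 in NZB, against 9.85 in B6 and 18.9 in the library labelled v6.5, a log2 fold change of 3.57 (SE 0.84, limma adjusted p = 0.045). NZB lay between the NOD libraries and the others for both genes, and neither passed when no filter on low values was used (limma adjusted p = 0.22 and 0.23). Ggct, the gamma-glutamylcyclotransferase that makes 5-oxoproline, gave 139 and 97.9 in the NOD libraries and 75.1 in NZB, against 464 in B6 and 379.9 in the library labelled v6.5. Ggct fell in NOD and NZB against B6 and v6.5, with a log2 fold change of -2.05 (SE 0.36, limma adjusted p = 0.034), and its adjusted p became 0.093 without NOD replicate 5, 0.28 without B6 and 0.21 without the library labelled v6.5.

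Of the 5 glutathione peroxidases, 0 were called by limma in NOD against B6 or in NOD and NZB against B6 and v6.5 (2 and 2 at an unadjusted p under 0.05). By edgeR the counts were 1 and 0. An unadjusted p under 0.05 was found in 18.9% and 25.6% of all genes, and edgeR called 8.10% and 2.54%. Gpx2, the gastrointestinal form, gave 22.9 and 7.75 normalised reads in the NOD libraries and 40.1 in NZB, against 115 in B6 and 93.3 in the library labelled v6.5, without overlap, and a log2 fold change of -2.35 (SE 0.70, limma adjusted p = 0.092) for NOD and NZB against B6 and v6.5. In NOD against B6 its log2 fold change was -3.01 (SE 0.93), with adjusted p = 0.11 by limma and 0.015 by edgeR. Gpx1, the common cytosolic form, gave 669 and 1253 in the NOD libraries and 778 in NZB, against 1421 in B6 and 1587 in the library labelled v6.5 (limma adjusted p = 0.15). Both Gpx1 and Gpx2 were lower in each NOD and NZB library than in the other libraries, on the deposited scale only Gpx2.

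Gpx4, which reduces lipid hydroperoxides and guards against ferroptosis, gave 1007 and 466 normalised reads in the NOD libraries and 401 in NZB, against 279 in B6 and 402 in the library labelled v6.5. NZB and the library labelled v6.5 were level, and the log2 fold change of 0.78 (SE 0.42) had limma adjusted p = 0.28. A share of 61.7% of the 50-base stretches of Gpx4 occurs in another gene, so its count is uncertain. Gpx7 lay between 109.5 and 137 in the NOD and NZB libraries, against 69.0 and 81.6 in the library labelled v6.5 and B6, and Gpx3 between 18.4 and 84.4 with the groups overlapping.

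Catalase (Cat), the peroxisomal enzyme that breaks down hydrogen peroxide, gave 1521 and 1845 normalised reads in the NOD libraries and 2077 in NZB, against 4269.7 in B6 and 3022 in the library labelled v6.5. All NOD and NZB libraries lay below both others. The log2 fold change was -0.997 (SE 0.25, limma adjusted p = 0.067) for NOD and NZB against B6 and v6.5 and -1.35 (SE 0.42) for NOD against B6, with adjusted p = 0.11 by limma and 0.049 by edgeR.

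The superoxide dismutases and Prdx1, a peroxiredoxin that reduces hydrogen peroxide, overlapped between the groups. Sod1, the cytosolic dismutase, gave 1218 and 1749.6 normalised reads in the NOD libraries and 1826 in NZB, against 1358 in B6 and 1694 in the library labelled v6.5. Sod2, the mitochondrial one, gave 1740.3 and 4952 in the NOD libraries and 1988 in NZB, against 1794 in B6 and 1432 in the library labelled v6.5, so NOD replicate 5 alone stood high. Prdx1 was the steadiest of the abundant members, with a 1.38-fold difference between its lowest and highest libraries and values of 3513 and 4856 in the NOD libraries and 3827 in NZB, against 3756 in B6 and 4197 in the library labelled v6.5. The limma adjusted p of Sod1, Sod2 and Prdx1 for NOD and NZB against B6 and v6.5 was 0.92, 0.35 and 0.97.

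Of the 4 enzymes known chiefly as NRF2 targets, 0 were called by limma or edgeR in NOD against B6 or in NOD and NZB against B6 and v6.5, with 0 and 1 at an unadjusted p under 0.05. The shares of all genes at that p were 18.9% and 25.6%. Nqo1, a quinone reductase, gave 264 and 439.9 normalised reads in the NOD libraries and 281 in NZB, against 573 in B6 and 671 in the library labelled v6.5, without overlap except on the deposited scale, and a log2 fold change of -0.95 (SE 0.30, limma adjusted p = 0.11). Hmox1, the inducible haem oxygenase, gave 651 and 1425 in the NOD libraries and 851 in NZB, against 740.2 in B6 and 1169.5 in the library labelled v6.5. Txnrd1, thioredoxin reductase, gave 2255 and 4574 in the NOD libraries and 4902 in NZB, against 5363 in B6 and 3175 in the library labelled v6.5. Hmox1, Txnrd1 and Srxn1, the sulfiredoxin that repairs peroxiredoxins, overlapped between groups, with log2 fold changes of -0.01, -0.16 and -0.07. The gene spans of Txnrd1 and Eid3 overlap by 1304 bases on the same strand. Of the 3482 50-base stretches of the Txnrd1 transcript, 0 occur in another gene.

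The regulators of that pathway were also not called. Of 10 genes listed as NRF2 pathway regulators, 0 passed limma's threshold in NOD against B6 or in NOD and NZB against B6 and v6.5 (2 and 5 at an unadjusted p under 0.05, with 1 and 0 calls by edgeR). Nfe2l2, which encodes NRF2 itself, gave 1294 and 1658 normalised reads in the NOD libraries and 1501 in NZB, against 2829 in B6 and 1890.2 in the library labelled v6.5, and a log2 fold change of -0.65 (SE 0.26, limma adjusted p = 0.16). Keap1 gave 314 and 392 in the NOD libraries and 342 in NZB, against 499.6 in B6 and 461 in the library labelled v6.5. Among 15 tested genes of NRF2-responsive metabolism, such as the pentose phosphate enzymes, 0 were called in either comparison (3 and 5 at an unadjusted p under 0.05, with 3 and 0 calls by edgeR). Beside both lists, 18.9% and 25.6% of all genes had such an unadjusted p, and edgeR called 8.10% and 2.54%.

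The letters TGACNNNGC, the core of an antioxidant response element, were searched on both strands of the RefSeq promoters, 250 bases before to 50 after the start site. They occur in the promoters of 14% of 27025 genes and of 9 of the 35 members with an entry (25.7%): Gsta3, Gstm5, Gstm7, Mgst1, Gclm, Txnrd1, Srxn1, Sod1 and Prdx1. The windows are shown for a gene that rose, one that was lower without passing limma's threshold, and 2 abundant genes whose groups overlapped, each in GRCm38.p6 on the plus strand with the matching letters in capitals (Gstm5 reads in the forward direction, the others on the opposite strand). In Prdx1 the match overlaps the letters TGAGTCA, which are also found elsewhere in the promoter of Gstm5. Members with these letters had fold changes of either sign, and a match in the reference is a description of the sequence, not a site.
Gstm5, chr3:107895792-107895840: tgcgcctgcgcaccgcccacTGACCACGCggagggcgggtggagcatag
Gclm, chr3:122245403-122245451: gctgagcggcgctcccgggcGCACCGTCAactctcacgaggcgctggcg
Prdx1, chr4:116685446-116685494: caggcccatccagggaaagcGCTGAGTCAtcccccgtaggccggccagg
Sod1, chr16:90220686-90220734: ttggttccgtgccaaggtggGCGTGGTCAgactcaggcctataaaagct

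A wider list of 20 thioredoxin, peroxiredoxin and glutaredoxin genes had 0 calls by limma in both comparisons (5 and 9 at an unadjusted p under 0.05, with 2 and 0 calls by edgeR). Of these, 17 had a positive log2 fold change in NOD against B6, where the list's median was 0.36, against 0.01 over all genes. Of 8 tested genes among other GST-fold, peroxidase and dismutase genes, 0 were called by limma or edgeR in either comparison, with 0 and 1 at an unadjusted p under 0.05. Over all genes, 18.9% and 25.6% had such an unadjusted p, and edgeR called 8.10% and 2.54%.

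A list of 22 other detoxification enzymes, of which 18 were tested, had 1 gene that rose in NOD against B6 and in NOD and NZB against B6 and v6.5, 1 that fell in NOD against B6 and 3 that rose in NOD against v6.5 (limma, where 3.13%, 3.88% and 1.65% of all genes were called in NOD against B6, in NOD and NZB against B6 and v6.5 and in NOD against v6.5). The calls in NOD against v6.5 were Mt2, Mt1 and Ephx2, and the last 2 are named after their values were seen. Mt2, a metallothionein that binds metal ions and scavenges radicals, gave 1977 and 3289 normalised reads in the NOD libraries and 3049 in NZB, against 650.2 in B6 and 196 in the library labelled v6.5. Mt2 rose in NOD and NZB against B6 and v6.5 with a log2 fold change of 2.92 (SE 0.48, limma adjusted p = 0.030) and in NOD against B6 with 1.97 (SE 0.44, limma adjusted p = 0.038). Its adjusted p in the comparison of NOD and NZB against B6 and v6.5 became 0.060 without NOD replicate 1, 0.094 without NOD replicate 5, 0.061 without B6 and 0.16 without the library labelled v6.5. Cyp1b1, a cytochrome P450 that oxidises aromatic compounds and oestrogens, gave 48.8 and 18.9 in the NOD libraries and 88.5 in NZB, against 381 in B6 and 32.5 in the library labelled v6.5. Cyp1b1 fell in NOD against B6 with a log2 fold change of -3.60 (SE 0.83, limma adjusted p = 0.042), but with the library labelled v6.5 added to the B6 side its value was -1.85 (adjusted p = 0.28). B6 was the single high library for Cyp1b1. The summed fibroblast markers were 183 and 168 in the NOD libraries and 6931 in NZB. They were 4199 in B6 and 664 in the library labelled v6.5. The part of those markers in the level of Cyp1b1 was not tested.

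Ephx2, the soluble epoxide hydrolase, gave 942 and 1829 normalised reads in the NOD libraries and 2171 in NZB, against 947 in B6 and 111 in the library labelled v6.5, a log2 fold change of 3.55 (SE 0.48, limma adjusted p = 0.0051) in NOD against v6.5. The library labelled v6.5 was the low one for Ephx2, and the limma adjusted p in NOD against B6 was 0.64. Mt1, the neighbouring metallothionein gene, gave 3136 and 6453 in the NOD libraries and 5694 in NZB, against 1942 in B6 and 637 in the library labelled v6.5, a log2 fold change of 2.82 (SE 0.49, limma adjusted p = 0.019) in NOD against v6.5, without overlap between the groups.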

How the data were processed

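RNA-seq of 5 ES cell libraries was analysed from the deposited table. According to the submitters' processing notes and the methods, reads were called with CASAVA 1.8.2, aligned to mm9 with STAR (version 2.2.0c in the notes) and counted over RefSeq exons by strand with HOMER. Reads of every strain were thus aligned to a C57BL/6 reference. The authors deposited signal values per gene that HOMER had scaled to one total per library, without a log. These values were whole multiples of 1 read (100% of values below 3000 within 0.05 of a whole read), so reads were recovered from them. Columns holding the authors' own fold changes, p-values and false discovery rates were not used, and 27 symbols had been turned into dates.

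Deposited values were divided by TMM factors, and log2(value + 1) was tested with limma 3.58.1 (trend) in R 4.3.3 over the 14280 genes kept by filterByExpr, with Benjamini-Hochberg adjustment and a threshold of 0.05. Fold changes are on the log2(value + 1) scale, which understates changes of low genes. Pairs of strains were compared with 1 mean per strain (1 residual degree of freedom) and NOD and NZB against B6 and v6.5 in 2 groups (3 residual degrees of freedom). Alternatives were edgeR 4.0.16 and DESeq2 1.42.0 on recovered reads, deposited scaling without TMM, a pseudocount of 5, no filter, fewer libraries and each library left out. Scripts were tested on simulated data.

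The members and lists were chosen with earlier results of these data known. Values are given for every library for members called or reaching 1000 normalised reads, and of the related lists the genes that passed limma's threshold in NOD against B6 or in NOD and NZB against B6 and v6.5 were named. Nfe2l2 and Keap1 were added for their role, and Ephx2 and Mt1 after their values were seen. Intervals cover counting error only. Promoters came from RefSeq (GRCm38.p6) and matched 35 of 40 members, without Gsta4, Gstt2, Gclc, Gsr and Hmox1.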

Additional observations from a re-analysis of the deposited data

How the results depend on the processing

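With a pseudocount of 5 the counts of called genes among the 37 stayed at 0 in every pair, where between 0.0210% and 3.53% of all genes were called. The count stayed at 3 in NOD and NZB against B6 and v6.5, where 3.89% of all genes were called. In NOD against B6 the count of 0 became 8 with edgeR, 3 with DESeq2 and 6 without TMM. Of all genes, 8.10%, 4.94% and 8.37% were called in these settings. The count became 1 (Mgst2) with no filter, 3 in a fit of the NOD and B6 libraries alone and 7 with v6.5 joined to B6. Those settings called 5.75%, 6.22% and 9.11% of all genes. In NOD against NZB the count became 1 with edgeR and 1 with no filter, where 2.58% and 6.23% of all genes were called. In NOD against v6.5 it became 4 with edgeR and 2 with DESeq2, where 5.86% and 3.26% were called. In NZB against B6 it became 2 with edgeR, where 2.04% were called. In NOD and NZB against B6 and v6.5 the count of 3 became 9 with DESeq2, 6 without TMM and 0 with no filter. Those settings called 14.9%, 11.4% and 0.283% of all genes. The count was 0 without NOD replicate 1, 0 without NOD replicate 5 and 7 without NZB. Of all genes, 0.770%, 0.0350% and 9.11% were then called. The cause of these shifts was not tested.

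Without TMM the median log2 fold change of all genes moved by 0.76 in NOD against B6, 0.92 in NZB against B6, 0.70 in v6.5 against B6, -0.16 in NOD against NZB and 0.47 in NOD and NZB against B6 and v6.5. In NOD against B6 the sign then turned for Gsr (0.089), Gsta4 (0.19), Txnrd1 (0.037), Gpx1 (0.14), Gstz1 (0.53), Nqo1 (0.026), Gstm2 (0.75), Gsta3 (0.61) and Srxn1 (0.079), none of them called. With v6.5 joined to B6 it turned for Sod1 (-0.055) and Gstm2 (0.36). Gstp2 kept its direction without TMM in NOD and NZB against B6 and v6.5 (-1.54, limma adjusted p = 0.059).

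Over all genes, limma called 447 in NOD against B6, of which 49.2% were higher, against 1156 with edgeR, 705 with DESeq2, 1195 without TMM (89.96% higher), 1181 with no filter, 891 in the NOD and B6 libraries alone and 1301 with v6.5 joined to B6. In NOD and NZB against B6 and v6.5 it called 554 (262 higher and 292 lower), against 362 with edgeR, 2123 with DESeq2, 1625 without TMM and 58 with no filter. The counts without 1 library were 110 (NOD replicate 1), 5 (NOD replicate 5), 1301 (NZB), 0 (B6) and 1 (labelled v6.5). With no filter Oplah, Ggt7, Mt2 and Cyp1b1 lost their call in NOD against B6 (limma adjusted p = 0.22, 0.23, 0.32 and 0.33). No paired analysis was made because the labels give no pairing between the libraries. At this depth 3 reads correspond to between 1.45 and 4.57 normalised reads, so differences of Gsto2, Mgst1 and Mgst2 rest on at most 20 reads in a library.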
